A study of Mus musculus with 5 samples.

Results

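The genes described here are 33 markers of microglia and of the complement system, the resident macrophages of the brain and a protein cascade that tags material for removal. They were chosen by name, and a probe was matched to a gene through the platform's symbol, read as a current mouse symbol or an unambiguous older synonym, with the brightest probe standing for each gene. A probe was found for 27 of the 33, out of 17710 named genes on the array. P2ry12, P2ry13, P2ry6, Tyrobp, Ly86 and C4b had no named probe and were not analysed here. For 9 of the 27, the mean level was under 8.31 on the log2 scale, the 95th percentile of 544 probes for olfactory receptors, genes mostly silent in brain that serve here as a measure of background.

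RNA came from the striatum of 5 male FVB mice aged 12 months. In 3 mice, called HD_miR196a, a Huntington's disease (HD) transgene was combined with a transgene for a precursor of the microRNA miR-196a. The other 2 mice, called HD, carried the HD transgene alone. The HD transgene, which all 5 mice share, encodes GFP joined to HTT exon 1, of human origin and with a run of 84 CAG repeats, and both transgenes were driven by a human ubiquitin promoter, which is active in most cell types and so is not a microglial model. Mice lacking the HD transgene were not analysed here. Whether the mice came from separate litters is not stated, and the p-values measure only the spread between these 5 animals. Values are log2 of quantile-normalized probe intensity, differences are HD_miR196a minus HD, and p-values come from limma, adjusted by the method of Benjamini and Hochberg over all 26423 probes. The number of arrays limits the precision.

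Microglia depend on the growth factor receptor Csf1r and, when undisturbed, are recognised by surface proteins such as Cx3cr1 and Tmem119. When they take up debris or synapses they use receptors such as Trem2, lysosomal enzymes such as Ctss, and C1q, the complex of the C1qa, C1qb and C1qc chains that starts the classical complement cascade. In brain most C1q comes from microglia. In bulk tissue, fewer microglia and less RNA per microglial cell cannot be told apart.

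The agent that separates the groups is shown first. Both mouse genes for miR-196a, Mir196a-1 on chromosome 11 and Mir196a-2 on chromosome 15, give the same mature 5p strand, taken here from RefSeq (GRCm38.p6), with the seed, bases 2 to 8, in capitals. The labels do not say from which of them, or from which species, the transgene's precursor came, and the level of the microRNA was not analysed here.
mmu-miR-196a-5p: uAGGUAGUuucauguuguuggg

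Of the 27 measured members, 0 passed an adjusted p under 0.05, as did 0 of 26423 probes (0.0%). At an unadjusted p under 0.05 there was 1 member, Tmem119, or 1 in 27, against 3.71% of all named genes. The groups did not overlap for 8 members, 29.6%, against 20.7% of all named genes. Over all members 12 were higher and 15 lower in HD_miR196a mice, where 48.9% of all named genes were higher. That count of 12 was 3 without scaling, where the median difference over all probes was -0.20. It was 9 without HD_miR196a mouse 1 and 17 without HD_miR196a mouse 2. The median difference was -0.01, against -0.00405 over all genes.

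**Figure D1:**
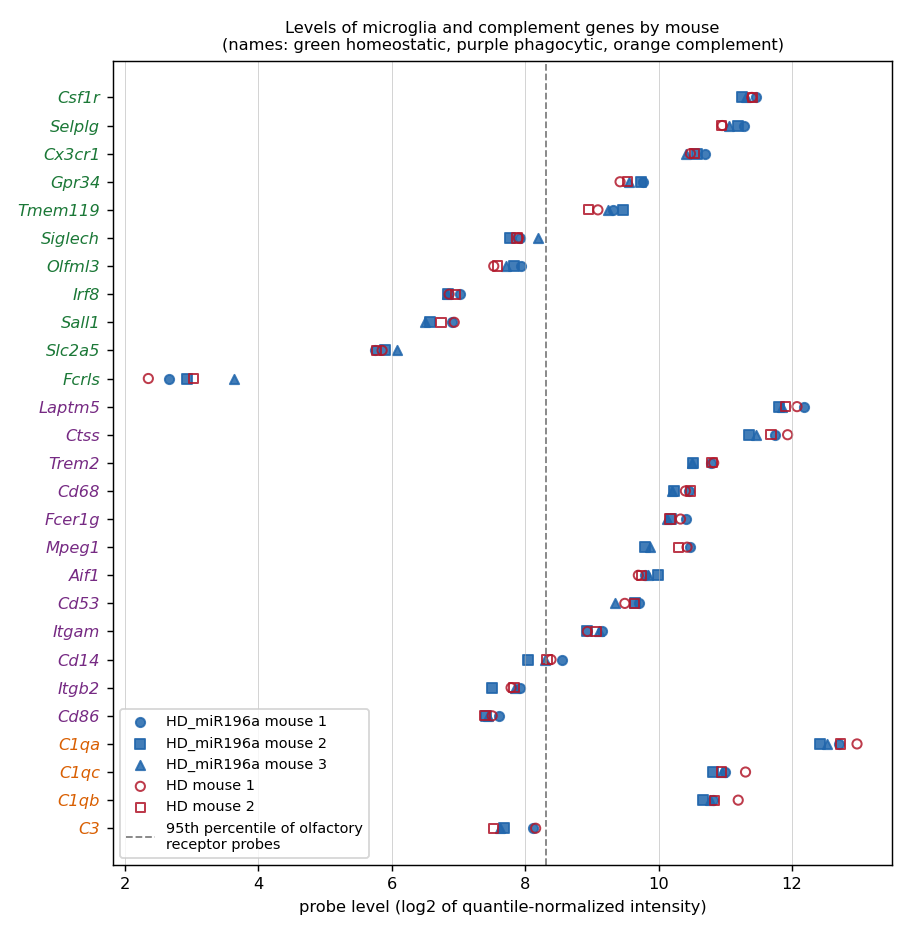
Level of each measured member in each mouse, on the log2 scale of quantile-normalized intensity, with HD_miR196a mice as filled blue symbols and HD mice as open red ones. The dashed line marks 8.31, the olfactory receptor percentile, and 9 members have a mean below it; levels of different genes come from different probes and cannot be ranked.

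Homeostatic genes, those of undisturbed microglia, were higher in HD_miR196a mice for 8 of 11 measured members, with a median difference of 0.09 (-0.041 without scaling, where that of all probes was -0.20), and 0 passed the threshold. In 4 of the 11 the groups stood apart, all with HD_miR196a mice higher, as did 10.0% of all named genes. Tmem119, a membrane protein used to tell microglia from other macrophages, measured 9.32, 9.47 and 9.24 in HD_miR196a mice 1 to 3, against 9.09 and 8.96 in HD mice 1 and 2. All HD_miR196a mice lay above both HD mice. Its difference was 0.32 ± 0.11 (SE), with a 95% interval from 0.02 to 0.62 (adjusted p = 0.979).

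Olfml3, a secreted protein of microglia, measured 7.93, 7.83 and 7.72 in HD_miR196a mice, against 7.53 and 7.58 in HD mice. The difference was 0.27 ± 0.11 (SE, adjusted p = 0.979), at a level below the olfactory receptor percentile. Selplg, the selectin ligand PSGL-1, which other leukocytes carry too, measured 11.27, 11.20 and 11.05 in HD_miR196a mice, against 10.95 and 10.95 in HD mice. Again every HD_miR196a mouse was above both HD mice, by 0.22 ± 0.11 on average (SE, adjusted p = 0.979). Its second probe, close to the floor, differed by 0.26 ± 0.16 with overlapping groups.

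Gpr34, a lysophosphatidylserine receptor, measured 9.76, 9.73 and 9.56 in HD_miR196a mice, against 9.42 and 9.54 in HD mice. The lowest HD_miR196a mouse was only just above the highest HD mouse, and the difference was 0.20 ± 0.11 (SE, adjusted p = 0.979). These 4 genes gave positive differences with each mouse left out in turn, from 0.25 to 0.39 for Tmem119 and from 0.15 to 0.27 for Gpr34. On the values as deposited, without scaling, Tmem119 and Olfml3 differed by 0.10 and 0.09 while Selplg and Gpr34 differed by -0.03 each.

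Csf1r and Cx3cr1, the growth factor receptor and the fractalkine receptor, were close to equal. Csf1r measured 11.46, 11.26 and 11.30 in HD_miR196a mice, against 11.40 and 11.41 in HD mice, a difference of -0.06 with a 95% interval from -0.33 to 0.22. Cx3cr1 measured 10.70, 10.57 and 10.42 in HD_miR196a mice, against 10.48 and 10.53 in HD mice, with an interval from -0.26 to 0.37. The groups overlapped for both genes.

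The other homeostatic members were dim. The transcription factors Sall1 and Irf8, which help set microglial identity, differed by -0.18 ± 0.16 and -0.01 ± 0.11 (SE). The lectin Siglech differed by 0.07 ± 0.15 and Slc2a5, a fructose transporter, by 0.09 ± 0.13. The Fc receptor-like gene Fcrls lay near the floor, between 2.35 and 3.64 in all mice, so its difference of 0.38 ± 0.37 says little about its transcript. Groups overlapped for all 5 of these genes, and their means lay below the olfactory receptor percentile.

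Members of phagocytosis, immune signalling and the lysosome were lower in HD_miR196a mice for 8 of 12 measured genes, with a median difference of -0.05 (0.019 without HD_miR196a mouse 2), and 0 passed. Where all named genes are concerned, 51.0% were lower. Trem2, the lipid-sensing receptor of phagocytic microglia, measured 10.79, 10.51 and 10.51 in HD_miR196a mice, against 10.83 and 10.80 in HD mice. The groups did not overlap, though HD_miR196a mouse 1 was only just below the HD mice. The difference was -0.21 ± 0.13 (SE, 95% interval from -0.55 to 0.13, adjusted p = 0.979).

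Ctss, the lysosomal protease cathepsin S, measured 11.74, 11.35 and 11.46 in HD_miR196a mice, against 11.93 and 11.69 in HD mice, a difference of -0.29 ± 0.16 (SE). HD_miR196a mouse 1 lay above HD mouse 2, so the groups overlapped, and without HD mouse 1 the difference was -0.17. Mpeg1, a pore-forming protein of macrophages, measured 10.47, 9.79 and 9.88 in HD_miR196a mice, against 10.43 and 10.30 in HD mice. HD_miR196a mouse 1 was the highest of all 5 mice and the other 2 HD_miR196a mice were the lowest. The difference was -0.32 ± 0.24 (SE), and a second, dimmer probe with the same order of mice at both ends differed by -0.19 ± 0.24. Without HD_miR196a mouse 1, Mpeg1 differed by -0.53, and without HD_miR196a mouse 2 by -0.19.

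Cd68, a lysosomal glycoprotein used to mark phagocytic microglia, measured 10.46, 10.23 and 10.21 in HD_miR196a mice, against 10.40 and 10.48 in HD mice. HD_miR196a mice 2 and 3 were below both HD mice and mouse 1 was between them, with a difference of -0.15 ± 0.12 (SE), or -0.23 without HD_miR196a mouse 1. Aif1, which encodes the calcium-binding protein Iba1, went the other way, at 9.80, 10.00 and 9.84 in HD_miR196a mice, against 9.70 and 9.75 in HD mice. The groups did not overlap, and the difference was 0.16 ± 0.10 (SE, adjusted p = 0.979), or 0.099 without HD_miR196a mouse 2.

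The remaining phagocytic and immune members differed by between -0.06 and 0.06, with overlapping groups for all 7. The integrin chains of complement receptor 3 differed by 0.06 ± 0.12 for Itgam and -0.06 ± 0.16 for Itgb2. Fcer1g, the signalling chain of Fc receptors, differed by -0.01 ± 0.13, the lysosomal membrane protein Laptm5 by -0.04 ± 0.15 and the tetraspanin Cd53 by 0.01 ± 0.15. The lipopolysaccharide co-receptor Cd14 differed by -0.06 ± 0.18 and the costimulatory ligand Cd86 by 0.04 ± 0.11. Their 95% intervals reached no further than -0.52 and 0.39.

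All 4 measured complement members were lower in HD_miR196a mice, with a median difference of -0.23 (-0.05 without HD mouse 1), and 0 passed the threshold. In 2 of the 4 the groups did not overlap, as in 10.7% of all named genes in that direction. C1qa measured 12.71, 12.43 and 12.52 in HD_miR196a mice, against 12.97 and 12.73 in HD mice. Deposited intensities, before scaling, were 5720, 5180 and 5834 in HD_miR196a mice and 8913 and 7558 in HD mice. The HD arrays were brighter in median as deposited. Without scaling C1qa differed by -0.56, where the median over all probes was -0.20. All HD_miR196a mice lay below both HD mice, with mouse 1 just under HD mouse 2, and the difference was -0.30 ± 0.14 (SE, 95% interval from -0.67 to 0.06, adjusted p = 0.979), which is 0.812 times the HD level.

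C1qb measured 10.81, 10.67 and 10.77 in HD_miR196a mice, against 11.19 and 10.83 in HD mice. As for C1qa the groups did not overlap but nearly met, and the difference was -0.26 ± 0.14 (SE, adjusted p = 0.979). C1qc measured 11.00, 10.81 and 10.94 in HD_miR196a mice, against 11.30 and 10.94 in HD mice, a difference of -0.20 ± 0.15 (SE) with overlapping groups. For each C1q chain HD mouse 1 was the highest of the 5 mice. Without HD mouse 1 the differences were -0.18 for C1qa, -0.08 for C1qb and -0.02 for C1qc, and without HD mouse 2 they were -0.42, -0.44 and -0.38. C3, the central complement protein, which astrocytes and blood-derived cells can also make, measured 8.12, 7.69 and 7.63 in HD_miR196a mice, against 8.16 and 7.52 in HD mice. Mouse 1 of each group was high and the groups overlapped fully, at -0.03 ± 0.26 (SE).

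**Figure D2:**
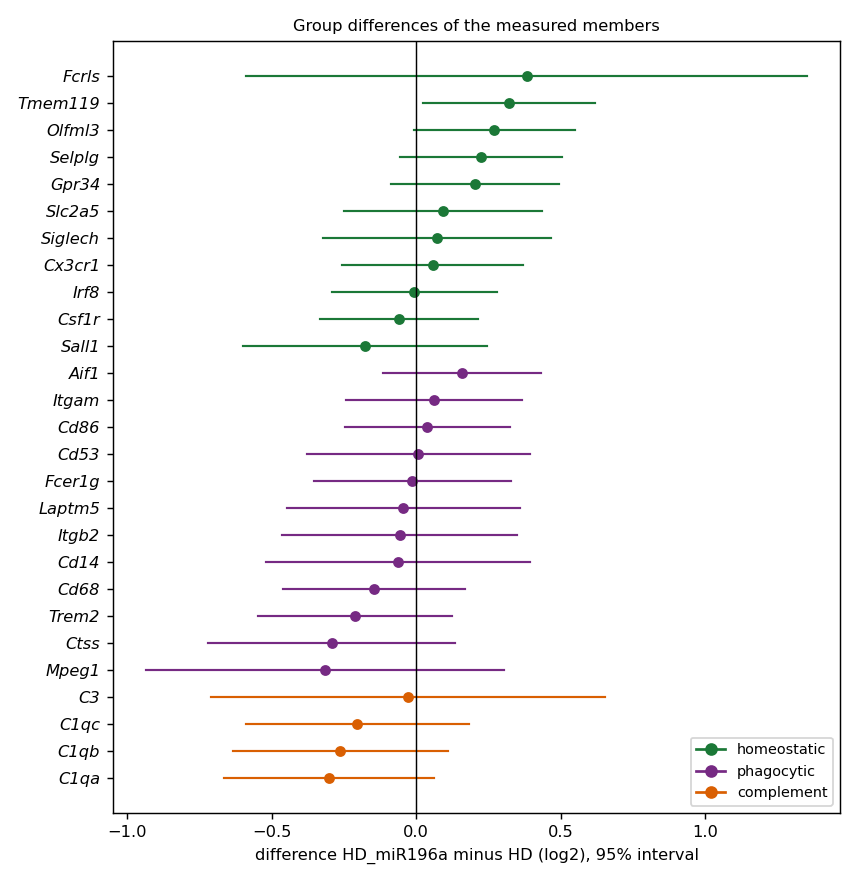
Difference HD_miR196a minus HD of each measured member on the log2 scale, with its 95% interval from limma, by class. The interval of Tmem119, from 0.02 to 0.62, is the only one that leaves out 0, and none passed after adjustment over all probes.

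The C1q genes lie side by side on chromosome 4, in the order C1qb, C1qc and C1qa, with 0 other protein-coding genes between them. Promoter windows of 250 bases before to 50 after the RefSeq start (GRCm38.p6) were searched on both strands for GGAAGT, a short form of the element bound by PU.1, the Ets factor encoded by Spi1 on which microglia depend, and for its longer form GAGGAAGT, which contains it. Of the 33 members, 22 had a window. The longer form was in 3 of the 22 (13.6%), namely Ctss, Cd53 and C1qc, and in 3.69% of 27025 genes in the table. The shorter form was in 10 of the 22 (45.5%) and in 26.5% of all genes. The windows of C1qb, C1qc and Ctss are shown because these genes were among the lower members, a choice made on the outcome. Of the other genes with a match, Cd53, Fcrls and Siglech differed by 0.01, 0.38 and 0.07. Sall1, Cd68 and Laptm5 differed by -0.18, -0.15 and -0.04. The groups overlapped for all of these, Fcrls lay near the floor, and P2ry12 had no probe. C1qa and Mpeg1, also lower in HD_miR196a mice, are not among the 10 genes with a match. Whether they are among the 22 members with a window is not reported here, so a missing match cannot be read from this. Whether a match goes with a difference was not tested. In the windows shown the match is in capitals and reads as the reverse complement in each. The match begins 53 bases before the start in C1qb, 195 in C1qc and 2 in Ctss, and it is a match of letters, not a measured binding site.
C1qb, chr4:136886151-136886450, minus strand: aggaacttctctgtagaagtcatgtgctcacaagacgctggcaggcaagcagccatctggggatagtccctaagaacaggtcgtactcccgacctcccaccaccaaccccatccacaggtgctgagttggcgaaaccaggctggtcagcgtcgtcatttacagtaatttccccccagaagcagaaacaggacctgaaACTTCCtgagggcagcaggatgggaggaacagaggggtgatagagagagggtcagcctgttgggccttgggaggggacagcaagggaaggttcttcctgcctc
C1qc, chr4:136892865-136893164, minus strand: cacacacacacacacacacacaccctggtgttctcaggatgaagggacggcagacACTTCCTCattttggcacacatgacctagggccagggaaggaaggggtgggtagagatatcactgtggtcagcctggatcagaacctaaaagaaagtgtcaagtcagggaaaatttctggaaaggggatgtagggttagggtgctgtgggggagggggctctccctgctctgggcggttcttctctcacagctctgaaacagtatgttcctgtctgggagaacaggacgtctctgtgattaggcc
Ctss, chr3:95526536-95526835, plus strand: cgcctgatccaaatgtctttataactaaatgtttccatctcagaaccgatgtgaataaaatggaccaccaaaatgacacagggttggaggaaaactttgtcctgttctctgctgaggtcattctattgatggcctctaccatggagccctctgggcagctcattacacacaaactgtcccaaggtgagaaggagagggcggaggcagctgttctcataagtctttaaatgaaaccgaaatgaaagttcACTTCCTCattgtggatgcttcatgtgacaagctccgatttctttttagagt
Spi1 itself measured 11.39, 11.77 and 11.41 in HD_miR196a mice, against 11.23 and 11.84 in HD mice. The groups overlapped, with a difference of -0.01 ± 0.24 (SE). HD_miR196a mouse 1 was the lowest of its group, just under mouse 3, while it was the highest of its group for 22 of the 27 members. Whether the Spi1 probe follows microglia in this tissue was not tested.

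The difference between the classes was taken within each mouse, as the mean of the 11 homeostatic members minus the mean of the 16 phagocytic and complement members, which removes a shift shared by all of them. Its absolute size depends on the probes and only its change between mice can be read. It was -1.843, -1.624 and -1.630 in HD_miR196a mice 1 to 3, against -2.018 and -1.839 in HD mice 1 and 2. HD_miR196a mouse 1 lay just below HD mouse 2, so the groups overlapped slightly. The group means were -1.70 ± 0.12 (SD, n = 3) and -1.93 ± 0.13 (SD, n = 2), a difference of 0.23, given without a test because the members were chosen with results known.

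Restricted to the 18 members above the olfactory receptor percentile, 5 homeostatic and 13 others, the same quantity was -0.09, 0.11 and -0.06 in HD_miR196a mice, against -0.35 and -0.23 in HD mice. Here each HD_miR196a mouse was above both HD mice. Over all 11 homeostatic members, the 6 dim ones included, the mean level was 8.25, 8.19 and 8.23 in HD_miR196a mice and 8.07 and 8.12 in HD mice, without overlap. Over all 12 phagocytic members it was 9.90, 9.62 and 9.66 in HD_miR196a mice and 9.82 and 9.78 in HD mice, with overlap. With each mouse left out in turn the class difference stayed positive, lowest without HD mouse 1, at 0.14, and highest without HD mouse 2, at 0.32.

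**Figure D3:**
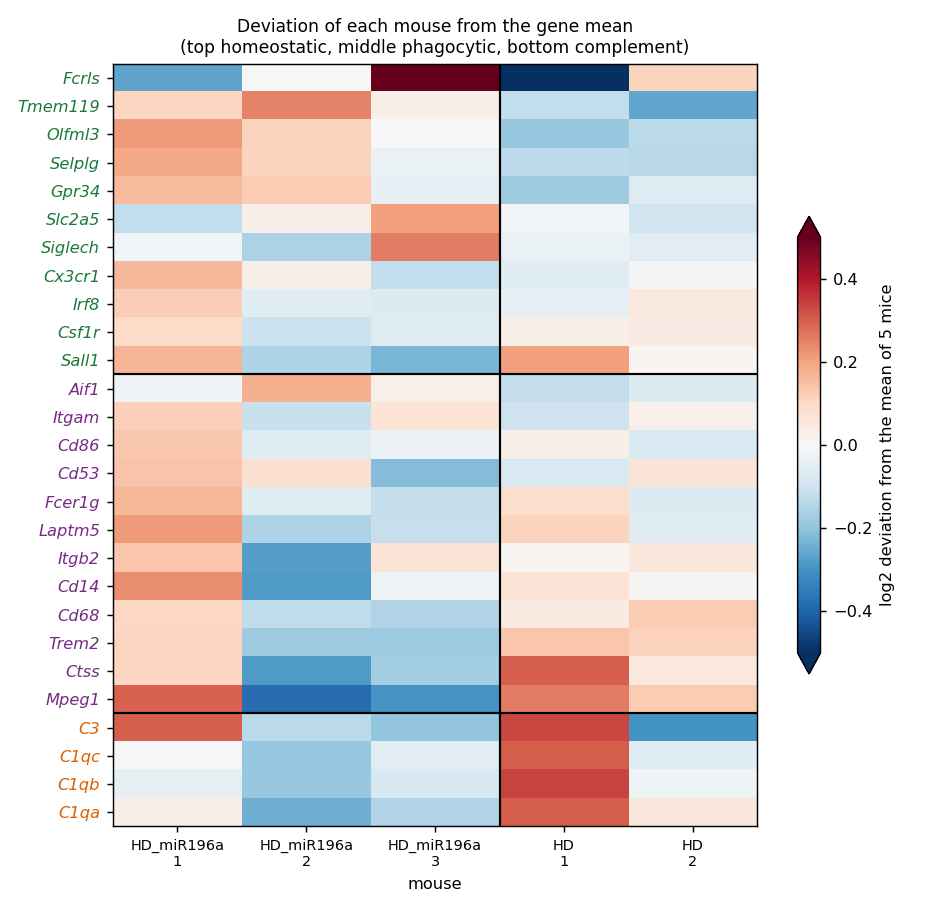
Deviation of each mouse from the mean of the 5 mice, on the log2 scale, for each measured member; rows are ordered within class by the group difference and columns run from HD_miR196a to HD mice. HD_miR196a mouse 1 is above the other HD_miR196a mice in 22 of 27 rows, and the C1q rows are highest in HD mouse 1.

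HD_miR196a mouse 1 had the highest level of its group for 22 of the 27 members, 15 of them among the 16 phagocytic and complement genes, while over all named genes this was so for 6657 of 17710. HD mouse 1 was above HD mouse 2 for 16 of the 27 members, all 4 complement genes among them, and for 9452 of the 17710 named genes. Mouse 1 of each group also had the lowest cortical projection neuron genes, which mark the tissue above the striatum. The mean of the 7 measured markers was 9.30 in HD_miR196a mouse 1, against 11.51 and 11.06 in mice 2 and 3 of that group, and 9.51 and 11.71 in HD mice 1 and 2. The part of cortical tissue in the microglial differences was not tested. Without mouse 1 of each group, a setting chosen after seeing the data that leaves 1 HD mouse, the class difference was 0.21 and the median of complement members -0.09.

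**Figure D4:**
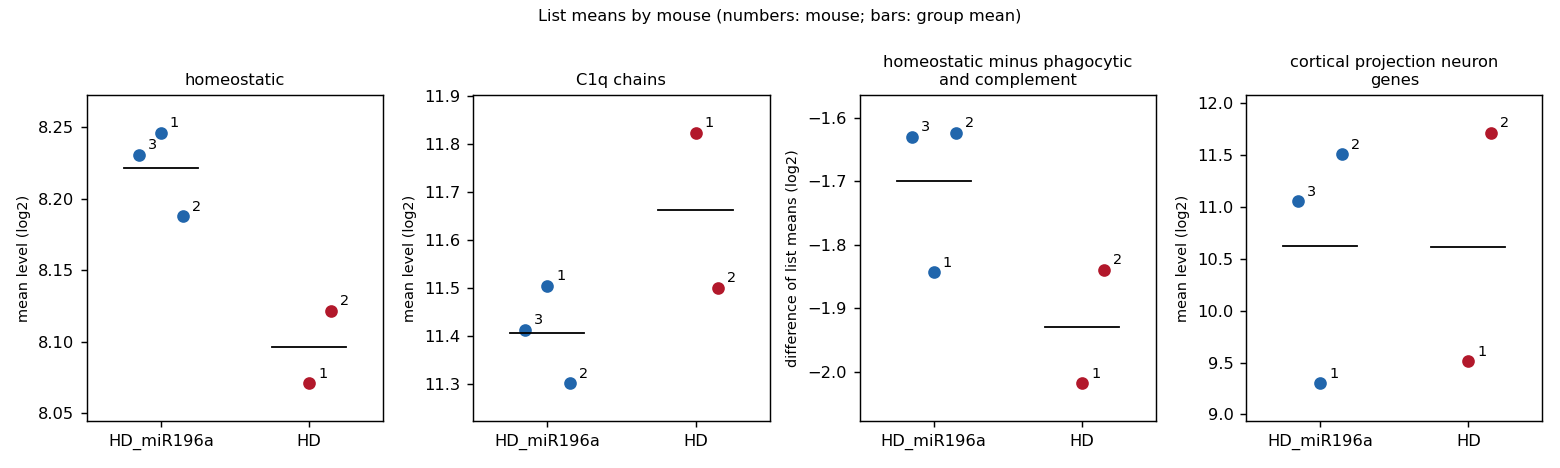
Means over list members in each mouse (numbers), with bars at the group means, for homeostatic genes, the C1q chains, the homeostatic minus phagocytic and complement difference, and cortical projection neuron genes, all on the log2 scale. Homeostatic means do not overlap between the groups, the other 3 do, and mouse 1 of each group is the lowest in cortical genes.

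Genes of the same pathways outside the set gave no call. Of 14 measured complement regulators and receptors, 9 were higher and 0 passed, with a median difference of 0.10. The mean level of 9 of the 14 lay below the olfactory receptor percentile. Properdin, Cfp, which stabilises the alternative pathway convertase, measured 10.30, 10.28 and 10.12 in HD_miR196a mice, against 9.98 and 9.78 in HD mice. Its groups did not overlap, at 0.35 ± 0.12 (SE, adjusted p = 0.979), and Cd59a, an inhibitor of the membrane attack complex, differed by 0.42 ± 0.17 without overlap. Genes of TREM2, TYROBP and CSF1R signalling and of microglial development had a median of 0.02 over 15 genes, 9 of them higher. That median was -0.072 without HD_miR196a mouse 2 and 0.13 without HD mouse 2. Those with the smallest p were the signalling gene Vav1, at 0.20 ± 0.12, and the transcription factor Runx1, at 0.20 ± 0.14. Both had a mean below the olfactory receptor percentile, as did 7 of the 15 genes.

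Genes of disease-associated microglia, a state described around amyloid and dying neurons, were lower for 10 of 15 members, with a median of -0.06 and 0 called. The median was -0.18 without HD_miR196a mouse 1 and 0.0056 without HD_miR196a mouse 2. The glycoprotein gene Gpnmb differed by -0.33 ± 0.21 and the protease cathepsin B, Ctsb, by -0.16 ± 0.11, the groups of Ctsb not overlapping. Gpnmb was among the 6 of 15 genes with a mean below the olfactory receptor percentile. The list mean was 9.88, 9.40 and 9.58 in HD_miR196a mice and 9.72 and 9.71 in HD mice, again with HD_miR196a mouse 1 the highest. A further 20 microglia genes had a median of 0.03, 12 of them higher, and a median of -0.030 with HD mouse 2 left out, against 0.080 with HD_miR196a mouse 3 left out. Abi3, an actin regulator, differed by 0.39 ± 0.20 with overlapping groups, and Cst3, the protease inhibitor cystatin C, by 0.17 ± 0.10 without overlap. Both had a mean below the olfactory receptor percentile, as did 10 of the 20 genes, so their differences say little about the transcripts.

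Other cells that share transcripts with the set were described in the same way. Border macrophage markers, 7 of 8 measured and 6 of those below the olfactory receptor percentile, had a mean level of 6.91 to 7.57 in HD_miR196a mice and 7.23 to 7.30 in HD mice, with 5 higher, 2 lower and a median difference of 0.02. That median was -0.12 without HD_miR196a mouse 2 and 0.18 without HD_miR196a mouse 1. Stab1, a scavenger receptor, differed by 0.21 ± 0.12 and Ms4a7 by -0.37 ± 0.16, both without overlap. Ms4a7 was among the markers below the olfactory receptor percentile. Monocyte and neutrophil markers, 6 of 9 measured, averaged 6.17 to 6.26 in HD_miR196a mice and 5.74 to 6.15 in HD mice. Among these, 3 were higher and 3 lower, with a median difference of -0.01, and 5 of the 6 lay below the olfactory receptor percentile. Plac8 lay at the floor in HD mouse 2 and between 1.38 and 2.97 in the others. The haptoglobin gene Hp differed by -0.60 ± 0.44. T and B cell markers, 8 of 9 measured, averaged 6.20 to 6.34 in HD_miR196a mice and 6.09 to 6.21 in HD mice. Of the 8, 3 were higher and 5 lower, and 6 lay below the olfactory receptor percentile. Ms4a1 measured 1.62 to 3.42, and Cd3g, also below that percentile, differed by -0.22 ± 0.11. The part of these cells in the microglial values was not tested.

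The tissue label was checked against genes of medium spiny neurons, the main striatal neurons. Penk, an enkephalin precursor, measured 15.25, 15.08 and 15.04 in HD_miR196a mice, against 14.73 and 14.76 in HD mice. Rgs9 differed by 0.54 ± 0.14 (SE, adjusted p = 0.979), and the mean of the 6 measured genes was 12.86 to 13.01 in HD_miR196a mice and 12.47 to 12.65 in HD mice. All 6 were higher in HD_miR196a mice, Tac1 by only 0.01 with overlapping groups, and 0 passed. For the other 5 the groups did not overlap, as for 20.7% of all named genes. The same 5 had an unadjusted limma p under 0.05, against 3.71% of all named genes. Oligodendrocyte genes were higher for 6 of 6, with a median of 0.25, among them Mbp at 0.33 ± 0.10 and Mobp at 0.59 ± 0.29. That median was 0.023 without HD mouse 2, 0.11 without HD_miR196a mouse 1 and 0.42 without HD mouse 1. Of 7 measured astrocyte genes 4 were higher and 3 lower, with a median difference of 0.01, or -0.13 without HD_miR196a mouse 1. Gfap, the filament gene raised in reactive astrocytes, measured 8.79, 8.09 and 8.71 in HD_miR196a mice, against 8.99 and 9.20 in HD mice, at -0.57 ± 0.25 (SE, adjusted p = 0.979). Slc1a3, an astrocyte glutamate transporter, ranged from 12.67 to 13.72 in HD_miR196a mice and was 12.57 in HD mouse 2, but its probe sat on the floor in HD mouse 1, so no fold was read from it. Among cortical genes Lamp5 differed by 0.11 ± 0.15 and Nrn1 by 0.34 ± 0.85, and Alas2, a gene of red blood cell precursors, by 0.43 ± 0.35. The part of these tissue differences in the microglial values was not tested.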

How the data were processed

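Striatal RNA of 3 HD_miR196a and 2 HD mice was amplified and labelled with Cy5, per the labels' protocols. The deposited values are linear intensities, in which 2 technical repeats of each mouse had already been merged by the authors, which leaves 1 value per mouse and makes the mouse the replicate. Values slightly below 0 show that background had been subtracted. The labels name no scanner, software or scaling. Array medians as deposited were 160.0 to 166.3 in HD_miR196a mice and 184.3 to 185.6 in HD mice.

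Intensities were quantile-normalized, floored at 1 and log2-transformed, and limma 3.58.1 (R 4.3.3, lmFit and eBayes) compared the groups over all 26423 probes, two-sided. An exact permutation test of 3 against 2 mice cannot give a p below 0.1 and was not used. Of the probes, 18213 matched a RefSeq symbol (GRCm38.p6) directly, 2126 a single gene's synonym, 38 an ambiguous synonym and 6046 had no symbol. The fit was also run on simulated data with known changes. The share it recovered is not reported here, so how small a change it could call is not given.

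The members and lists were chosen with earlier results of these data known, so lists carry counts and medians only. Every measured member is named, and of each further list the 2 genes with the smallest p. Spi1 falls outside this and was chosen after its values were seen. Alternatives covered scaling, floor, dim-probe filters, variance models, a replicate block, single mice left out and the choice of probe. Equal mouse numbers are not stated to pair mice.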

Additional observations from a re-analysis of the deposited data

How the results depend on the processing

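No alternative called a member at an adjusted p under 0.05. Before adjustment, 1 member had a p under 0.05 as reported, 8 without scaling, 3 with trend and robust settings and 0 to 2 under the others. Among all 26423 probes the same count was 1099 as reported, 3641 without scaling and 1018 with trend and robust settings. The count of 0 probes became 1 above the lower quartile of level, 2 when the floor was raised to the median olfactory receptor level, 3 with trend and robust settings, 0 to 3 with 1 mouse left out and 1099 at an unadjusted p under 0.05. Without scaling, where all probes had a median of -0.20, the median differences were -0.23 for all members, -0.041 for homeostatic, -0.26 for phagocytic and -0.47 for complement ones, so the homeostatic sign there holds only relative to all probes. The homeostatic median was 0.13 with median centring and 0.20 among probes above the median level or members above the olfactory receptor percentile, and 0.082 to 0.17 with 1 mouse left out. The median of all members was -0.10 to 0.033 with 1 mouse left out, and that of complement regulators 0.043 to 0.23, while the phagocytic one reached 0.019 without HD_miR196a mouse 2. The phagocytic median was -0.21 over Trem2, Cd68 and Ctss, the 3 genes left when a hand-picked list of leukocyte genes was taken out. All 3 had negative differences before, and whether other leukocytes add to their levels was not tested. The class difference stayed positive under all 15 alternatives, from 0.14 without HD mouse 1 to 0.34 with that leukocyte list taken out. Median centring and no scaling gave the same value, 0.26, because a shift of a whole array cancels in it, so they are not separate checks. With the replicate block, in which only the numbers 1 and 2 occur in both groups, the class difference was 0.20, and 0 members were called. Deviations of same-numbered mice from their group mean correlated at 0.236 for number 1 and 0.17 for number 2 across probes. With 2 HD mice, the deviations of HD mouse 1 are those of HD mouse 2 with the sign changed, so these are not separate checks. Mouse 1 of each group also shared low cortical genes. Whether numbers pair mice is therefore not settled. Of 373 values of single members, 44 were counted as having the opposite sign, with no call before or after, in 16 of the 27 members. Fcrls is among the 16 only through the raised floor, where every mouse sat on the floor. Its value of -1.1e-16 there is a rounding remainder, not a change of sign. Where these results moved, the cause was not tested. Low signal limits 9 members.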
